A study of Mus musculus with 4 samples.

Results

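The genes examined encode enzymes of glycolysis and of lactate metabolism. They were chosen by symbol, as the rows of the deposited table named Hk1, Hk2, Gpi1, Pfkl, Pfkm, Pfkp, Aldoa, Gapdh, Ldha and Ldhb. All 10 were found among the 25587 genes of the table. RNA-Seq had been performed on wild-type C57BL/6 (C57BL/6Babr) mouse oocytes, pooled for each library. Non-growing oocytes (NGOs) came from mice at 5 days post-partum (dpp), and growing oocytes from mice at 8 to 14 dpp (GO1) and at 15 dpp (GO2). Fully grown oocytes (FGOs, called GV oocytes in the labels) came from mice at 20 dpp. The ranges of oocyte size that the study gives for NGOs and GO1 overlap. All libraries were made from total RNA depleted of ribosomal RNA. The dUTP protocol was used for NGOs and FGOs, whereas the ScriptSeq kit was used for GO1 and GO2. Differences between those pairs cannot be told apart from differences of protocol, and changes were therefore measured only within a protocol, comparing NGOs with FGOs and GO1 with GO2. With 1 library per stage there was no replicate check of any value, and no p value was computed.

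Glycolysis converts glucose to pyruvate. Hexokinase traps glucose in the cell as glucose-6-phosphate, phosphofructokinase commits the sugar to breakdown, and lactate dehydrogenase interconverts pyruvate and lactate. Mouse oocytes are known to use pyruvate readily and glucose poorly, and to depend on the surrounding granulosa cells, which carry out glycolysis and pass pyruvate on to the oocyte. Several enzymes of the pathway exist as isozymes encoded by separate genes, which differ in the tissues in which they are made.

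Levels are in RPKM, the reads on a gene for every kilobase of its exons after scaling to the library total, which corrects for the length of the gene. The whole counts behind these values were recovered from the steps in which RPKM of genes with 1 exon increased, with library totals of 110595000 (NGO), 126797000 (GO1), 241386000 (GO2) and 119629000 (FGO). In each library at least 99.6 % of the values of such genes were within 0.02 of a whole count. Over a gene with 1 kb of exon, 3 counts corresponded to between 0.0124 RPKM (GO2) and 0.0271 RPKM (NGO). The library totals exceeded the raw reads that the study gives for each library, so that a fragment may have been counted more than once. Intervals are 95 % intervals for counting error only. They treat every count as independent, and are too narrow if fragments or PCR copies were counted more than once. All 12 oocyte markers examined had at least 3 counts in every library and summed to between 5041.4 and 7748.4 RPKM. The 10 granulosa markers summed to 2.99 (NGO), 2.57 (GO1), 5.16 (GO2) and 11.1 RPKM (FGO), none was listed at 0, and the aromatase gene Cyp19a1 alone gave 6.08 RPKM in FGOs. The 7 stroma and theca markers summed to between 0.179 (GO1) and 3.79 RPKM (NGO), and the 8 blood, immune and vessel markers to between 3.49 (NGO) and 10.1 RPKM (FGO). Of the latter, Pecam1 alone gave 1.74 (NGO) and 9.70 RPKM (FGO), whereas Hba-a1 was at 0.902 RPKM in NGOs and listed at 0 in FGOs.

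The members covered a very wide range of levels, and a single gene held between 94.9 and 95.2 % of their summed RPKM. Ldhb, which encodes the subunit of lactate dehydrogenase found in heart, was at 1480.2 RPKM (NGO), 651.6 (GO1), 686.0 (GO2) and 1020.4 (FGO). The intervals of the 4 libraries did not overlap, NGOs being highest and GO1 lowest. It was the member with the highest level in every library and ranked 7 (NGO), 18 (GO1), 15 (GO2) and 7 (FGO) among all genes of the table by RPKM. Its level was between 33.3 and 41.8 times that of the next member, the aldolase gene Aldoa. At the other end, Hk1, which encodes the hexokinase of brain and red blood cells, was at 0.00742 (NGO), 0.0120 (GO1), 0.0238 (GO2) and 0.0353 RPKM (FGO), from 7, 13, 49 and 36 counts. Of the 10 members, 5 reached 1 RPKM in every library (Gpi1, Pfkl, Pfkm, Aldoa and Ldhb), and the same 5 were above the median of the detected genes, which lay between 1.29 and 2.08 RPKM.

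**Figure D1:**
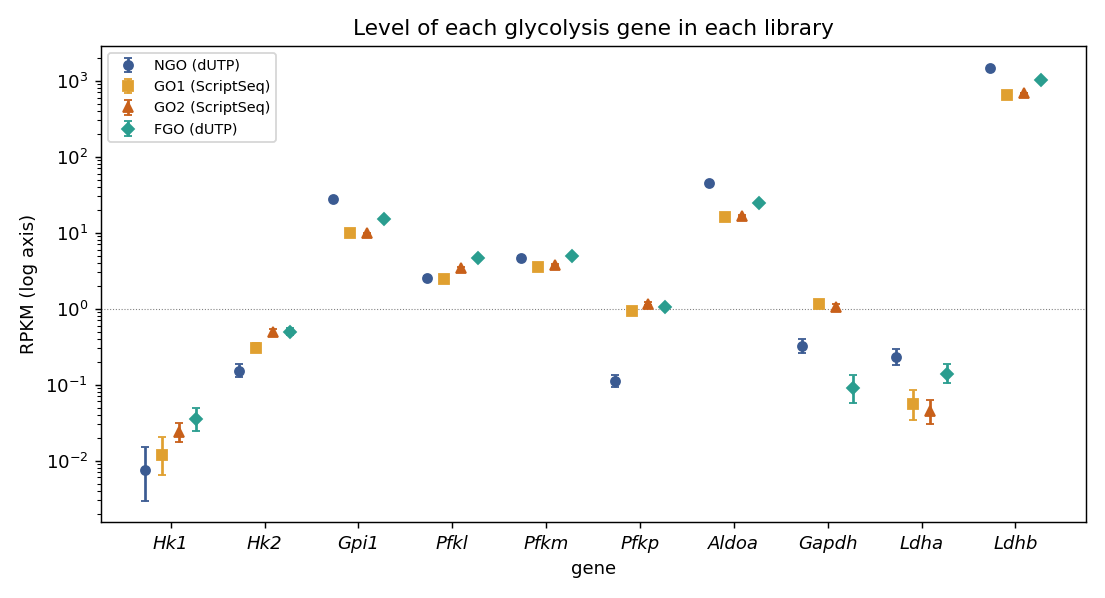
RPKM (log axis) of each member in the NGO, GO1, GO2 and FGO libraries, 1 point per library, with bars for the 95 % counting interval and a dotted line at 1 RPKM. Ldhb lies between 651.6 and 1480.2 RPKM in all libraries, and Hk1, Hk2 and Ldha lie below 1 RPKM in all of them.

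Hexokinase, the first enzyme, was represented at a low level by both members. Hk2 (chromosome 6, 82725025 to 82774454, minus strand), which encodes the insulin-responsive hexokinase of muscle, was at 0.153 RPKM (NGO), 0.308 (GO1), 0.496 (GO2) and 0.497 (FGO). The level intervals of GO2 and FGOs overlapped, and those of the other neighbours in order did not. Hk1 (chromosome 10, 62268855 to 62379908, minus strand) followed the same order, from NGOs at the bottom to FGOs at the top, but the intervals of each pair of neighbours in that order overlapped. Hk2 exceeded Hk1 between 14.1-fold (FGO; interval 9.99 to 20.5) and 25.6-fold (GO1; 14.7 to 48.8). In FGOs Hk2 was at percentile 33.3 of the detected genes and Hk1 at percentile 9.93.

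The middle of the pathway was carried by genes of moderate level. Gpi1 (chromosome 7, 34202122 to 34230289, minus strand), which encodes the isomerase that turns glucose-6-phosphate into fructose-6-phosphate, was at 27.5 (NGO), 9.98 (GO1), 9.82 (GO2) and 15.1 RPKM (FGO). Aldoa (chromosome 7, 126795234 to 126800751, minus strand), which encodes the aldolase of muscle, was at 44.4 (NGO), 16 (GO1), 16.6 (GO2) and 24.4 RPKM (FGO). For both genes the NGO library was the highest, the FGO library came next, and GO1 and GO2 were lowest, with level intervals that overlapped. The highest level was 2.80 times the lowest for Gpi1 (NGO over GO2) and 2.77 times for Aldoa (NGO over GO1), in both cases between different protocols.

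The phosphofructokinase genes were expressed at a few RPKM and differed in how they varied. Pfkm (chromosome 15, 98092589 to 98132447, plus strand), the muscle type, was at 4.67 (NGO), 3.53 (GO1), 3.76 (GO2) and 4.96 RPKM (FGO). Pfkl (chromosome 10, 77986947 to 78010083, minus strand), the liver type, was at 2.51 (NGO), 2.45 (GO1), 3.38 (GO2) and 4.66 RPKM (FGO). Pfkp (chromosome 13, 6579768 to 6648777, minus strand), the platelet type, was at 0.112 (NGO), 0.933 (GO1), 1.16 (GO2) and 1.05 RPKM (FGO). Pfkm had the smallest ratio of highest to lowest level of all members, at 1.41 (FGO over GO1). The NGO library stood far below the others for Pfkp, whose ratio was 10.4 (GO2 over NGO). Both ratios compare libraries of different protocols, so that stage and protocol cannot be told apart in them. The level intervals of neighbours in order overlapped between FGOs and NGOs and between GO2 and GO1 for Pfkm, between NGOs and GO1 for Pfkl and between FGOs and GO1 for Pfkp. Level intervals are not scaled between libraries, and scaled ratios with their own intervals are given further on. Pfkp shares 372 bases with Pitrm1 and Pfkm shares 981 bases with Senp1, both on the opposite strand. Pitrm1 was at 33.5 (NGO), 27.3 (GO1), 24.5 (GO2) and 13.4 RPKM (FGO), and Senp1 between 9.70 and 14.6 RPKM. As the strand setting of the counting is not given in the sources used here, reads in the shared bases may have been listed under either gene.

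Gapdh (chromosome 6, 125161853 to 125166467, minus strand), the enzyme of the first energy-yielding step and a gene often used as a constant reference, was listed at 0.325 (NGO), 1.14 (GO1), 1.05 (GO2) and 0.0890 RPKM (FGO), from 81, 327, 572 and 24 counts. Both ScriptSeq libraries were higher than both dUTP libraries, and FGOs were lowest. The highest level (GO1) was 12.9 times the lowest (FGO), a ratio between different protocols. These values have to be read with the sequence of the gene. Of the windows of 100 bases along its transcript, 80.5 % occurred with at most 2 mismatches in at least 1 other annotated gene. At least 5 windows matched in each of 112 such genes, of which 22 are in the table, where most are annotated as processed pseudogenes. The sequences shown are a window of Gapdh and the matching windows of the 3 copies with the most counts, and they show how closely these loci match over 100 bases. They were read from GENCODE transcripts on GRCm38 and are given 5′ to 3′ along the transcript, with capitals at the bases at which the 4 sequences differ. The windows lie at chr6:125163327-125163426 (Gapdh), chr11:20335881-20335980 (Gm12033), chr1:15269665-15269764 (Gm10566) and chr10:33809366-33809465 (Gm10327), all on the minus strand.
Gapdh: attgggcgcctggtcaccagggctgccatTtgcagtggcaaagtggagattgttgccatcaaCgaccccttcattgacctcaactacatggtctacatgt
Gm12033: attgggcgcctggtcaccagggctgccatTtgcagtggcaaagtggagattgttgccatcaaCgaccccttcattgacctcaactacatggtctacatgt
Gm10566: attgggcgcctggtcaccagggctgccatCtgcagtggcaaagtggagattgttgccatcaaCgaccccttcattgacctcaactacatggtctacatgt
Gm10327: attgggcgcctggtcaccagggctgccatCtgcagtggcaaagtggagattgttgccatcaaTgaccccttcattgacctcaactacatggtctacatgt

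The counts listed under Gapdh were a small part of those listed under Gapdh and its copies together, 1.20 % (NGO), 4.74 % (GO1), 5.20 % (GO2) and 0.788 % (FGO). Gm12033, whose window is identical to that of Gapdh, was at 12.8 (NGO), 33.2 (GO1), 27.0 (GO2) and 5.16 RPKM (FGO), and so followed the same order of libraries as Gapdh. Gm10566 and Gm10327, which differ from Gapdh by 1 and 2 bases in the window, had another order and were highest in NGOs, with 29.6 and 14 RPKM against 12.2 and 6.02 RPKM in FGOs. In GO1 they were at 4.98 and 4.47 RPKM, and in GO2 at 4.72 and 3.80 RPKM. How the reads had been divided between Gapdh and its copies was not tested, and the row of Gapdh cannot be taken as the level of its transcript.

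**Figure D2:**
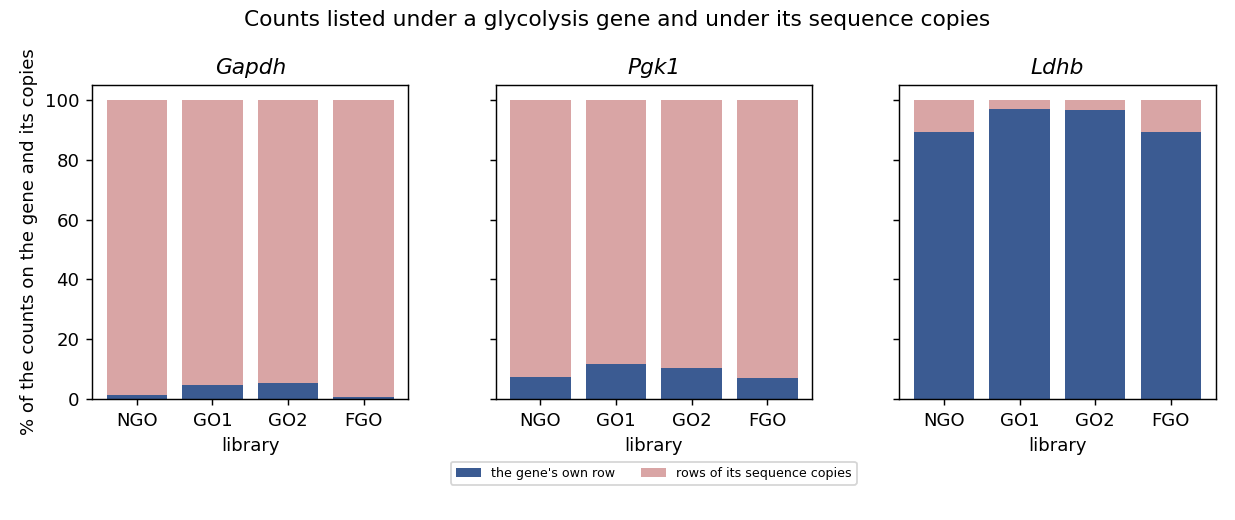
Share (%) of the counts on a gene and its sequence copies that was listed under the gene itself (blue) and under the copies (pink), for Gapdh, Pgk1 and Ldhb, 1 bar per library. The gene's own share is at most 5.20 % for Gapdh and at most 11.8 % for Pgk1, and at least 89.1 % for Ldhb. The listed row of the Ldhb copy covers only part of that copy.

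Ldhb (chromosome 6, 142490249 to 142507957, minus strand) also has a copy, Gm5514 on chromosome 19, which matched 48.8 % of its windows. A window identical in both genes is shown because the copy, unlike most, was listed at a high level. The window of Ldhb lies at chr6:142492517-142492616 on the minus strand and that of Gm5514 at chr19:21938093-21938192 on the plus strand (GRCm38, no base in capitals since none differs).
Ldhb: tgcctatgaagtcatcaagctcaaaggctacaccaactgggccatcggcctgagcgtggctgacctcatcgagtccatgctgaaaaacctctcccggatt
Gm5514: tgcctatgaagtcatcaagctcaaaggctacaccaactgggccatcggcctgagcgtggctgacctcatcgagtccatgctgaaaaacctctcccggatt

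Gm5514 was listed at 907.1 (NGO), 104.7 (GO1), 120.9 (GO2) and 643.6 RPKM (FGO). Counts do not correct for the short length of the copy. Of the counts on both rows, Ldhb held 89.3 % (NGO), 97.0 % (GO1), 96.7 % (GO2) and 89.1 % (FGO). The row of Gm5514 covers only bases 21938079 to 21938384, less than the 59 matching windows span. Any reads on the rest of the copy are left out of this share. How the reads had been divided between Ldhb and Gm5514 was not tested. Among the other members, Gpi1 shared 39.1 % of its windows with Gm1840 (at most 10 counts in any library), and Aldoa shared 4.83 %. Ldha shared 27.9 % with other genes, and its 5 copies are all outside the table. Hk1, Hk2, Pfkl, Pfkm and Pfkp shared none.

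Ldha (chromosome 7, 46841475 to 46855627, plus strand), the subunit of lactate dehydrogenase that prevails in muscle and in strongly glycolytic cells, was at a low level. It was listed at 0.233 (NGO), 0.0555 (GO1), 0.0445 (GO2) and 0.140 RPKM (FGO), from 77, 21, 32 and 50 counts. The dUTP libraries were both higher than the ScriptSeq libraries, and within each kind of library the intervals of the levels overlapped. Any reads placed on the copies of Ldha outside the table are not part of these levels or of the ratios to Ldha. Ldhb exceeded Ldha 6340-fold for NGOs (interval 5072.5 to 8033.8), 11732.1-fold for GO1 (7674.7 to 18953.5), 15430.2-fold for GO2 (10929.9 to 22559.3) and 7280.3-fold for FGOs (5521.9 to 9809.1). The third gene of the enzyme, Ldhc, known for its expression in testis, was at 17.4 (NGO), 25.8 (GO1), 26.9 (GO2) and 22.8 RPKM (FGO), and therefore exceeded Ldha between 74.4-fold (NGO) and 605.9-fold (GO2). Ldhb held between 96.2 and 98.8 % of the summed RPKM of the 3 genes, Ldhc between 1.16 and 3.81 %, and Ldha between 0.00624 and 0.0156 %.

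The promoters of Ldhb and Ldha are shown because these genes stood furthest apart among those encoding subunits of 1 enzyme. The 250 bases before the most upstream start that the RefSeq table gives for each gene were read on GRCm38.p6, at chr6:142507958-142508207 (Ldhb, minus strand) and chr7:46845554-46845803 (Ldha, plus strand), and are written 5′ to 3′ with capitals at matches to ACGTG or GCGTG on either strand, the core letters of the element bound by the hypoxia-inducible factor HIF-1, a known activator of glycolysis genes.
Ldhb: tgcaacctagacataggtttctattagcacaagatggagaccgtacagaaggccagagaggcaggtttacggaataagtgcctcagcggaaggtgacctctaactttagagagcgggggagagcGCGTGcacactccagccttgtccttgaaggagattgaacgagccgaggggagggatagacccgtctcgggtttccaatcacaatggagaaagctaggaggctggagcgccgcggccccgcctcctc
Ldha: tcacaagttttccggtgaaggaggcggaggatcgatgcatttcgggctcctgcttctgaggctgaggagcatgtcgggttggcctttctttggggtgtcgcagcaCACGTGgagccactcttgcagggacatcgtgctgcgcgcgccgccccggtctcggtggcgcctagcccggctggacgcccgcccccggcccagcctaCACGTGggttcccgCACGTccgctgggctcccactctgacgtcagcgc

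For Ldha this start lies inside the gene of the deposited table, which begins further upstream at 46841475, and RefSeq gives a second start whose window of 300 bases (chr7:46846832-46847131) held 2 matches. The Ldhb sequence held 1 match and the Ldha sequence 5, since the letters CACGTG match on each strand and count on both. In windows of 300 bases around the start, 43.8 % of 32851 promoters held at least 1 match. The same windows held a match for 13 of the 17 promoters of the members, which belong to 9 of the 10 genes, Gpi1 being the exception. Some windows of Aldoa and of Pfkm overlap, and genes with several windows have more chances of a match. The share of all genes with a match was not computed. A match describes these letters and does not show that a factor binds there.

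Shares of isozymes within a library do not depend on the scaling between libraries. For phosphofructokinase, Pfkm held 64.1 % of the summed RPKM (NGO), 51.0 % (GO1), 45.3 % (GO2) and 46.5 % (FGO). Pfkl held 34.4, 35.5, 40.7 and 43.7 %, and Pfkp 1.53, 13.5, 14 and 9.84 %, in the same order of libraries. The ratio of Pfkm to Pfkl was 1.86 for NGOs (interval 1.73 to 2.01), 1.44 for GO1 (1.33 to 1.55), 1.11 for GO2 (1.06 to 1.17) and 1.06 for FGOs (1.0 to 1.13), so that both genes were nearer to equal per length in the later stage of each protocol. The intervals of NGOs and FGOs did not overlap, nor did those of GO1 and GO2. Pfkm led in every library per length, whereas by counts, which favour long transcripts, it held 53.4 % in NGOs and 30.1 % in GO2.

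For hexokinase, the members were set beside Hk3 and Hkdc1, a hexokinase-like gene. These 4 genes together summed to 0.324 (NGO), 0.361 (GO1), 0.538 (GO2) and 0.541 RPKM (FGO). Hk2 held 47.2 % of this (NGO), 85.2 % (GO1), 92.2 % (GO2) and 92 % (FGO), and Hk1 never more than 6.52 %. Hkdc1 held 50.5 % in NGOs and 1.51 % in FGOs, from 93 and 5 counts. The ratio of Hk2 to Hkdc1 was 0.934 in NGOs (0.697 to 1.25), an interval that included 1, and 61.0 in FGOs (25.9 to 189.2). Hk3 had at most 3 counts in any library. Adpgk, which phosphorylates glucose with ADP in place of ATP, was at 15.1 (NGO), 15 (GO1), 18.2 (GO2) and 27.2 RPKM (FGO), and was thus at a higher level than these 4 genes together in every library.

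**Figure D3:**
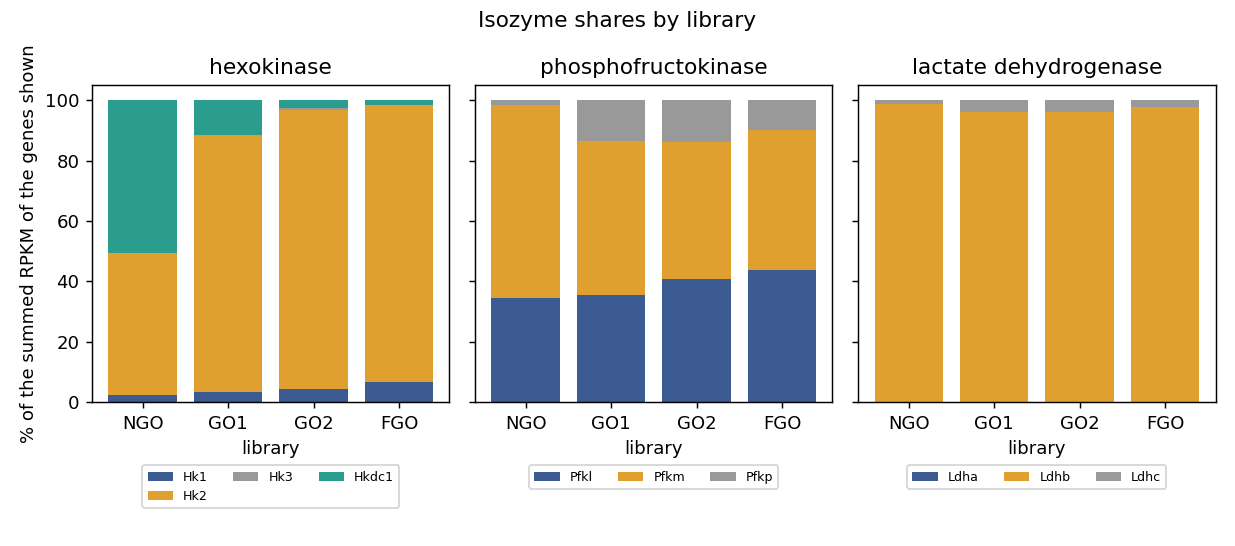
Share (%) of each isozyme gene in the summed RPKM of the genes shown for hexokinase, phosphofructokinase and lactate dehydrogenase, stacked by gene, 1 bar per library. Ldhb fills at least 96.2 % of each lactate dehydrogenase bar, and Pfkm takes 64.1 % in NGOs and 46.5 % in FGOs, against 50.5 and 1.51 % for Hkdc1.

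Viewed along the pathway, the listed levels were low at hexokinase, moderate from the isomerase to triosephosphate isomerase, lower again from GAPDH to enolase and highest at the end. Phosphoglycerate mutase stood above its neighbours, with a summed level between 2.94 (GO1) and 6.14 RPKM (NGO). Pkm, the pyruvate kinase that forms pyruvate, was at 202.5 (NGO), 71.2 (GO1), 93.8 (GO2) and 167.5 RPKM (FGO). Triosephosphate isomerase (Tpi1), which interconverts the products of aldolase, was between 5.28 (GO1) and 19.9 RPKM (FGO). The low levels listed for Gapdh, Pgk1 and Eno1 belong to genes that share most of their windows with other loci (80.5, 67.1 and 84.5 %). They cannot be taken as the levels of these transcripts. Pgk1 (phosphoglycerate kinase, 0.745 to 1.88 RPKM) held between 6.94 and 11.8 % of the counts on itself and its copies, of which Pgk1-rs7 alone was at 30 RPKM in NGOs and 13.0 in FGOs. Eno1 (enolase) was at 0.262 to 0.566 RPKM. Pkm shared 50 % of its windows with other genes, and Pgam1 (phosphoglycerate mutase) 39.9 %. No copy of Eno1, Pkm or Pgam1 was among the genes of the table.

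**Figure D4:**
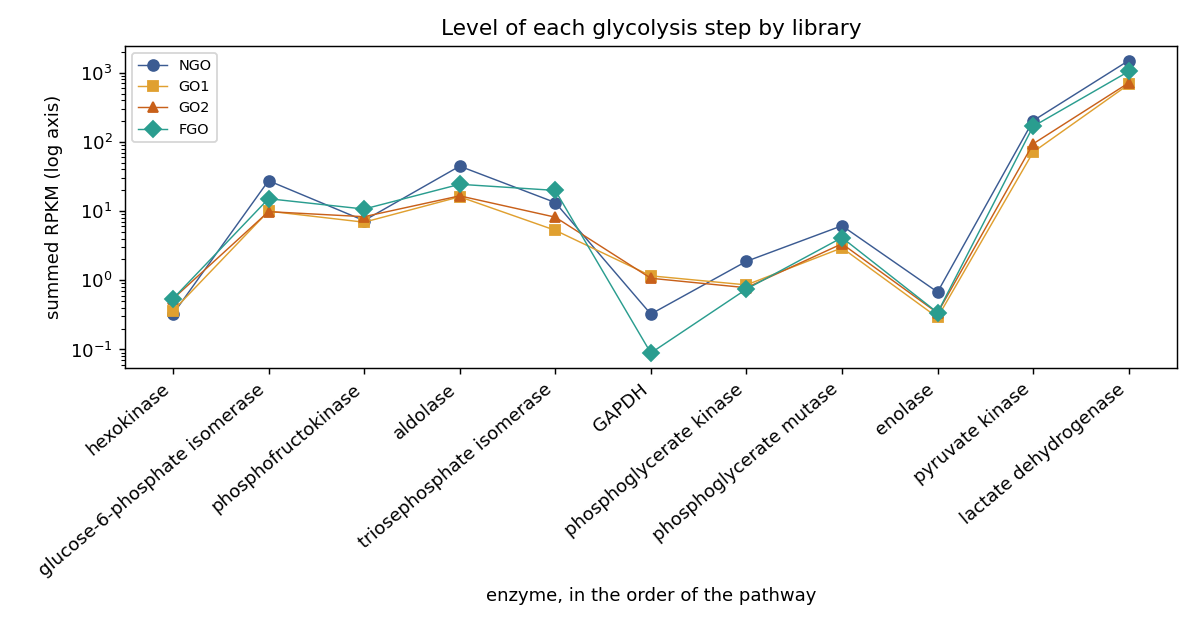
Summed RPKM (log axis) of the genes examined for each enzyme, in the order of the pathway from hexokinase to lactate dehydrogenase, 1 line per library. In every library lactate dehydrogenase is highest (677.4 to 1497.9 RPKM), followed by pyruvate kinase (71.2 to 202.5 RPKM), and the sums for hexokinase, GAPDH, phosphoglycerate kinase and enolase do not exceed 1.88 RPKM. The sums leave out counts listed under sequence copies.

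To ask how the genes changed during oocyte growth, log2 ratios of the recovered counts were computed within each protocol, scaled between libraries, and called at 2-fold. From NGOs to FGOs, 3 of the 10 members were at least 2-fold higher (Hk1, Hk2 and Pfkp), 1 was at least 2-fold lower (Gapdh) and 6 were neither. Over all 15248 genes that reached 20 counts in these libraries, 17.7 % were at least 2-fold higher, 16.7 % lower and 34.4 % either, so that 4 of 10 members was close to the background. The median log2 ratio of the members was -0.17, against -0.01 over all genes tested. The largest difference was that of Pfkp, at 3.27 (interval 3.01 to 3.57), a 9.68-fold higher level in FGOs. Hk1 followed with 2.15 (1.11 to 3.72), from 7 counts in NGOs and 36 in FGOs, and Hk2 with 1.74 (1.43 to 2.09). Gapdh was at -1.77 (-2.54 to -1.14), and at -1.21 (-1.28 to -1.15) when the counts of its copies were added.

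The members that were neither included the most abundant ones. Ldhb was at -0.48 (-0.49 to -0.47) with its own counts, a level in NGOs 1.40 times that in FGOs. With the counts of Gm5514 added it was likewise at -0.48. This sum could move little, since in NGOs it held 257022 counts of Ldhb and 30697 from the partial row of the copy. Gpi1 and Aldoa were both at -0.81 (-0.85 to -0.77). Ldha was at -0.67 (-1.23 to -0.15). Pfkl was just short of the threshold at 0.95 (0.85 to 1.05), and Pfkm was at 0.14 (0.04 to 0.24). For these 6 genes the ratio was therefore lower for 4 and higher for 2, each with an interval that did not include 0. These intervals hold counting error only and take the scaling as fixed. Without scaling, Pfkm was at 0.08. The granulosa markers, whose sum was 2.99 RPKM in NGOs and 11.1 RPKM in FGOs, were in sum higher in FGOs, as were Hk1, Hk2 and Pfkp. Of the 10 markers, 5 were at least 2-fold higher, 1 was lower (Foxl2, -1.34) and 4 were neither. Over all genes tested, 17.7 % were higher and 16.7 % lower. Most of the difference in the marker sum came from Cyp19a1, at 0.518 RPKM in NGOs and 6.08 in FGOs. The stroma and theca markers, at 3.79 RPKM in NGOs and 0.547 in FGOs, were in sum lower, as were Gpi1, Aldoa, Ldha and Ldhb. This sum was carried by Col1a1 and Col1a2 (2.24 and 0.896 RPKM in NGOs), whereas Cyp11a1 was higher in FGOs (0.00509 and 0.311 RPKM) and Pdgfra was at -0.27. The part of these cells in the differences was not tested. All ratios are relative to the other RNA of a library, and the total RNA of an oocyte was not measured. A lower ratio therefore does not show fewer transcripts per oocyte, nor a higher ratio more. In bulk oocytes, a change in the RNA of each oocyte cannot be told apart from a change in the share of oocytes that make it.

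From GO1 to GO2, none of the 10 members was at least 2-fold higher or lower, against 7.29 % higher, 2.59 % lower and 9.88 % either over 15719 genes tested, so that 0 of 10 was close to the background. The median log2 ratio was 0.09, against 0.06 over all genes. Hk1 was at 0.95 (0.09 to 2.0), Hk2 at 0.69 (0.48 to 0.91), Pfkl at 0.47 (0.38 to 0.56) and Pfkp at 0.32 (0.22 to 0.42), each with an interval above 0. Ldhb was at 0.08 (0.07 to 0.09), Aldoa at 0.05 (0.01 to 0.10) and Gpi1 at -0.02 (-0.06 to 0.03). Gapdh was at -0.12 (-0.32 to 0.08) and Ldha at -0.30 (-1.15 to 0.55), with intervals that included 0.

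**Figure D5:**
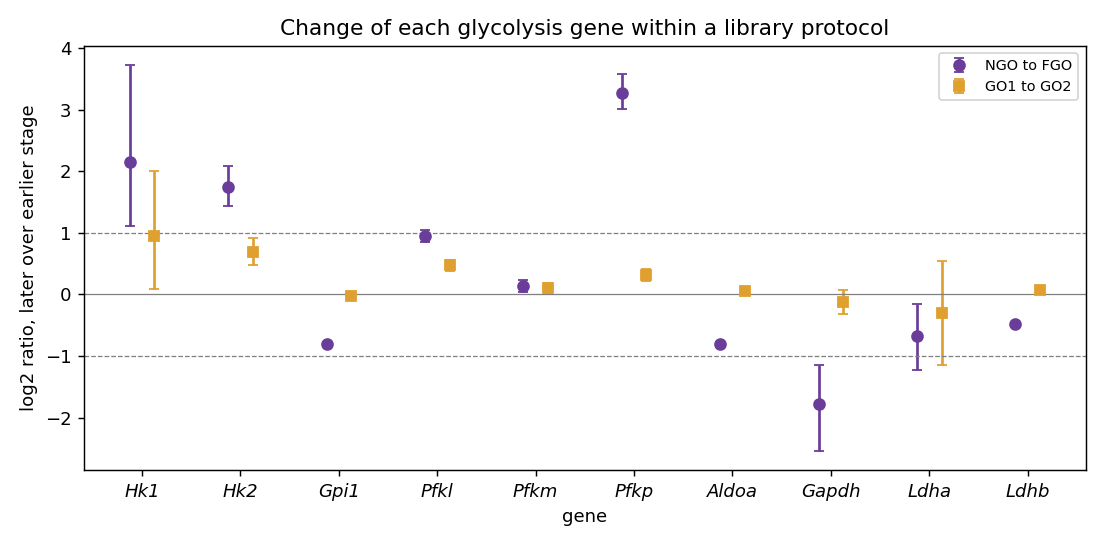
Log2 ratio of each member from NGOs to FGOs (purple) and from GO1 to GO2 (orange), with 95 % counting intervals, a solid line at 0 and dashed lines at 2-fold. From NGOs to FGOs Hk1, Hk2 and Pfkp lie above the upper dashed line and Gapdh below the lower one, and from GO1 to GO2 all 10 members lie between the lines.

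The members also differed between the 2 kinds of library. After scaling, Gpi1, Pfkm, Aldoa, Ldha and Ldhb were higher in both dUTP libraries than in both ScriptSeq libraries, Gapdh was lower in both, and the remaining 4 overlapped. Over 16648 genes, 26.0 % were higher in both dUTP libraries and 25.1 % lower (29.7 % and 21.3 % without scaling, where the same 5 members were higher and Gapdh was lower). Scaled levels of Ldhb were 1401.7 (NGO) and 1002.5 RPKM (FGO) against 674.3 (GO1) and 712.5 RPKM (GO2), and those of Aldoa 42.0 (NGO) and 24.0 RPKM (FGO) against 16.6 (GO1) and 17.2 RPKM (GO2). The dip of these genes in growing oocytes cannot be told apart from the change of protocol. Genes with a like profile over the 4 libraries were looked for among 8592 genes with at least 1 RPKM in each, by the Euclidean distance of centred log2 scaled RPKM from Ldhb. The nearest were Slc12a7 (distance 0.0497), Gm4799 (0.0531) and Paox (0.0626). Slc12a7 was at 8.14 (NGO), 3.53 (GO1), 3.87 (GO2) and 5.77 RPKM (FGO).

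A further 16 genes of the pathway were examined in the same way. From NGOs to FGOs, 10 could be tested, of which 4 were at least 2-fold lower and 6 were neither, against 34.4 % of all genes past 2-fold in either direction and 16.7 % lower. Their median was -0.64, against -0.01 over all genes. The 4 were Hkdc1 (-4.02), Eno3 (-2.19), Aldoc (-1.75) and Pgk1 (-1.28), and apart from Pgk1 they were at 0.194 RPKM or less in NGOs. From GO1 to GO2, Hkdc1 was lower (-1.44) and 8 of the 9 tested were neither. Of all genes, 9.88 % passed 2-fold in that pair. Eno2, Pgk2 and Pklr, the enolase of neurons, the phosphoglycerate kinase of testis and the pyruvate kinase of liver, were listed at 0 in all libraries.

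Regulators and carriers are to be read against 17.7 % of all genes higher, 16.7 % lower and 34.4 % either from NGOs to FGOs. Of 5 regulators of glycolysis, Pfkfb3 was lower from NGOs to FGOs and 4 were neither. Pfkfb3, which makes the activator of phosphofructokinase fructose-2,6-bisphosphate, was at 8.56 (NGO), 3.82 (GO1), 1.58 (GO2) and 1.96 RPKM (FGO), with log2 ratios of -2.07 (-2.15 to -2.0) from NGOs to FGOs and -1.27 (-1.34 to -1.19) from GO1 to GO2. It was the only one of the 5 past 2-fold in either pair. Among 10 carriers of glucose, lactate and pyruvate, Slc16a7, a high-affinity monocarboxylate transporter, was higher (4.46, interval 3.36 to 6.66, from 4 counts in NGOs and 113 in FGOs), Bsg, the chaperone of such transporters, was lower (-1.29), and 8 were neither. The transporter of lactate and pyruvate with the highest level was Slc16a1, at 11.8 (NGO), 9.16 (GO1), 10 (GO2) and 19.0 RPKM (FGO), and that of glucose was Slc2a1, at 8.63, 8.53, 10.9 and 13.6 RPKM. From GO1 to GO2 only Slc2a4 passed 2-fold among the carriers (1.30, from 9 and 44 counts). Over all genes, 9.88 % passed 2-fold in this pair.

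In the pathways that meet glycolysis, the shares of genes past 2-fold from NGOs to FGOs are to be read against the 34.4 % of all genes in either direction. Of the pyruvate dehydrogenase complex and its kinases and phosphatases, 11 genes were tested from NGOs to FGOs, of which Pdha2 (1.41), Pdhx (1.15) and Pdp2 (1.40) were higher and the inhibitory kinases Pdk2 (-1.72) and Pdk3 (-1.11) lower, 5 of 11 in all. Pdk2 rested on 18 counts in NGOs and 5 in FGOs, whereas Pdk3 was at 19.3 RPKM in NGOs and 8.64 in FGOs. None of the 11 passed 2-fold from GO1 to GO2, against 9.88 % of all genes. Of 8 genes of the pentose phosphate pathway, H6pd (-1.37), Pgls (-1.44) and Taldo1 (-1.08) were lower and 5 were neither. G6pdx, which opens this pathway from the same glucose-6-phosphate that Gpi1 uses, was among the latter at 82.9 (NGO), 108.3 (GO1), 92.4 (GO2) and 71.6 RPKM (FGO), and was higher than Gpi1 in every library, but sequence copies were searched for the enzymes of glycolysis only. Of 4 genes of gluconeogenesis tested, Fbp1 (1.23) and Fbp2, which oppose phosphofructokinase, were higher and Pcx, the pyruvate carboxylase, was lower (-1.12). Fbp2 was 2.01-fold higher (log2 interval 0.88 to 1.14), but without scaling its log2 ratio was 0.96, short of the threshold. No gene of the pentose phosphate pathway or of gluconeogenesis passed 2-fold from GO1 to GO2, against the same 9.88 % of all genes.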

How the data were processed

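RNA-Seq libraries of NGOs, GO1, GO2 and FGOs, 1 per stage, were analysed. The authors deposited RPKM on a linear scale, although the name of the table speaks of read counts. Per the labels, reads were processed with Trim Galore 0.2.8 and TopHat2 2.0.9 on GRCm38. The program, annotation and strand setting behind the table are not given in the sources used here. Whole counts were recovered from the RPKM of genes with 1 exon and from the exon lengths that made the values whole. For 9797 genes no annotated length was used, and the smallest length giving whole counts was taken. These include all members but Hk1, Hk2 and Ldhb. Their counts may be too low, and the check on genes with 1 exon does not cover them. The analyses had been planned for such recovered counts. Since the counts are not the originals, no count model was fitted to test for changes. The intervals nevertheless took the recovered counts as independent. Scaling used trimmed mean log ratios (30 % of ratios and 5 % of mean expression trimmed from each end) with a prior count of 1, and genes needed 20 counts in a pair to be tested. Detection required 3 counts. Ratios of counts were given exact binomial intervals and levels exact Poisson intervals (95 %). Copies were searched with blastn 2.17.0, in windows of 100 bases every 10 bases along GENCODE M21 transcripts, allowing 2 mismatches, and a gene with at least 5 matching windows was taken as a copy. Software comprised scipy 1.17.1, pandas 2.3.3, numpy 2.4.6 and matplotlib 3.10.9 under Python 3.11.15, and the ratios were tested on simulated data. The text names all members, genes of the lists of related pathways and cell markers, the 3 genes nearest to the most abundant member, and sequence copies and overlapping genes, which were chosen after values were seen. The members and lists were chosen with earlier results of these data known. Alternatives covered scaling, prior count, count minimum, threshold, length correction and the set of genes for percentiles. Genes outside the table and DNA methylation were not analysed here. Some genes of the pathway and of its regulators are not reported here.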

Additional observations from a re-analysis of the deposited data

How the results depend on the processing

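No paired analysis was possible because each stage has 1 library and the labels carry no replicate numbers. No member's called change reversed under any alternative run. Under a threshold of 1.5-fold, the members lower from NGOs to FGOs were 4 and those changed either way 8. Under 4-fold these were 0 and 2. Over all genes tested, 27.0 % were higher and 27.1 % lower at 1.5-fold, and 8.57 % and 5.52 % at 4-fold. From GO1 to GO2, 2 members were higher and 2 changed either way at 1.5-fold. Of all genes, 15.5 % were higher and 8.45 % lower at that threshold. By counts without length, the Pfkm share ran from 30.1 to 53.4 %. At a minimum of 100 counts Hk1 was not tested, and 2 members were higher, against 15.2 % of all genes. Without scaling, the ratios of Gpi1 and Aldoa were each -0.86 and that of Ldhb -0.54, and by a median of ratios Ldhb was -0.50 and, from GO1 to GO2, 0.04, each outside its counting interval. The comparison of both kinds of library without scaling and the addition of sequence copies were chosen after seeing the data. Without scaling, 29.7 % of all genes were higher in both dUTP libraries and 21.3 % lower, and the 5 members were unchanged. When percentiles were taken over genes detected in all libraries, 4 members were above the median throughout, against 5. Depth limits Hk1 and Ldha most, with 7 to 49 and 21 to 77 counts, and the absence of replicates limits every comparison.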
